A study of Mus musculus with 7 samples.

Results

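The genes described are the 9 imprinted genes Peg3, Usp29, Zim1, Snrpn, Ndn, Magel2, Mkrn3, Peg12 and Ube3a, which lie in 2 domains of mouse chromosome 7 and were taken from the count table by gene symbol, 9 of 54838 genes in all. RNA was measured in 7 cultures: 1 library of V6.5, an embryonic stem cell line of the mouse (ESC below), and 6 of colonies reprogrammed to induced pluripotency (iPSC) from B cells of the germinal center (GC). These were taken from spleens of male mice 9 days after immunization with sheep red blood cells (SRBC), were sorted as B220+ CD38- Fas+, either in bulk (GC-iPSC, 3 colonies) or by a Myc-GFP reporter of cells activated by T follicular helper cells (M-iPSC, 3 colonies), and spent 6 days with cytokines on a feeder layer of mouse embryonic fibroblasts. Doxycycline (Dox) was given for 10 days of reprogramming and then left out for 4 days; colonies were picked by hand, passaged once on gelatin, and freed of feeders by a 45 min pre-plating step. The titles do not spell out M, and it is read here as Myc-GFP, the sole alternative to bulk sorting in the design. All cultures were kept in KO-DMEM with FBS and LIF, the cytokine on which mouse pluripotent cells depend. Each iPSC library is 1 colony, donor mice and batches are not labelled, and effects of the donor cannot be told apart from those of the sorted cell.

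An imprinted gene is transcribed mainly from the copy inherited from 1 parent, because a control region of the domain was methylated in the egg or in the sperm and keeps that mark after fertilization. In the Peg3 domain, Peg3 and Usp29 are read from the paternal copy and Zim1 from the maternal copy. In the Snrpn domain, which corresponds to the human Prader-Willi and Angelman region, Snrpn, Ndn, Magel2, Mkrn3 and Peg12 are paternally expressed, and Ube3a is maternally expressed in neurons and read from both copies in most other cells. Such marks can be lost or gained while cells are reprogrammed or cultured. Gene counts do not separate the parental copies, so every value below is the sum of both.

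The promoters that the results turn on are shown as the 250 bases before the RefSeq start of each gene on GRCm38.p6, 5′ to 3′ on the gene's own strand, with every CpG, the dinucleotide that carries imprinting methylation, in capitals. They are those of Peg3, Snrpn, Magel2 and Aurkc. Peg3 passed between colony groups by edgeR but not by DESeq2, and its start lies beside that of Usp29 on the other strand. For Snrpn, the start in the region of the imprinting centre is shown. Magel2 passed against ESC by edgeR but not by limma-voom, and Aurkc is a gene beside the Peg3 domain.
Peg3 (chr7:6730420-6730669, minus strand): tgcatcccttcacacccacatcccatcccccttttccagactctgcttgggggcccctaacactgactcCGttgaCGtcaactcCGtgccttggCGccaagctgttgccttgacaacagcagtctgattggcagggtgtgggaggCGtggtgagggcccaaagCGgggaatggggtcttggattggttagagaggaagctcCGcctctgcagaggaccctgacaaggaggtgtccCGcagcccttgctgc
Snrpn (chr7:60005200-60005449, minus strand): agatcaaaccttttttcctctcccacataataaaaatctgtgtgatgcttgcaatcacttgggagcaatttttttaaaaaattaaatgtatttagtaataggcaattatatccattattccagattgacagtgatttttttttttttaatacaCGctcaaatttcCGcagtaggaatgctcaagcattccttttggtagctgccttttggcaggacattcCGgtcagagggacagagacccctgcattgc
Magel2 (chr7:62376729-62376978, plus strand): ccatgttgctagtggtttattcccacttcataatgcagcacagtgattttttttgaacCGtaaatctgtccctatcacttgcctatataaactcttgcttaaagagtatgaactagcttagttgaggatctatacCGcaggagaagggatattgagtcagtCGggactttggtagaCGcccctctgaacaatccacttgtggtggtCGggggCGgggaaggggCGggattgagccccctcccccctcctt
Aurkc (chr7:6995135-6995384, plus strand): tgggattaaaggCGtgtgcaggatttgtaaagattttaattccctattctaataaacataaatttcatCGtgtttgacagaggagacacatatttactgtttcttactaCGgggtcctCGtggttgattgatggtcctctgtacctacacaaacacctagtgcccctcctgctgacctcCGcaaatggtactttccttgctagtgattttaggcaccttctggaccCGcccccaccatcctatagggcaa
The Peg3 window holds 8 CpG, the Snrpn window shown 3, the Magel2 window 7 and the Aurkc window 6, beside a median of 6 over 32851 windows of the same length. Snrpn has other RefSeq starts, with windows at chr7:60047979-60048228, chr7:60140226-60140475 and chr7:60450178-60450427 that hold 4, 3 and 2 CpG. The RefSeq starts of Peg3 and Usp29 lie 164 bases apart on opposite strands, and the Usp29 window (chr7:6730333-6730582) holds 14 CpG. Among the windows of all 9 genes, the hexamer TGCCGC of the imprint-protecting factor ZFP57, searched on both strands, was found before Zim1 only, and is in 8.68% of all windows. The core GCCATNTT of the factor YY1, also on both strands, was found before Mkrn3 and Ube3a and is in 3.91% of all windows. Neither motif was found in the 4 windows shown, which says only that these letters are not there.

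Libraries held between 31139508 and 35728921 counts. The pluripotency markers Pou5f1, Sox2 and Nanog were at 349 CPM (read counts scaled to a common library size with TMM over the 7 libraries) or more in every library, and all 10 markers of that list were detected in all 7. The list summed to 8311 CPM in ESC and 5896 to 6429 CPM in the colonies; against ESC 7 of 10 fell in GC colonies and 8 of 10 in M colonies, and Pou5f1 and Klf4 rose in M against GC colonies. The 11 B cell markers summed to between 8.68 and 12.9 CPM in a library. Y-linked counts of Ddx3y, Eif2s3y, Kdm5d and Uty summed to 0 in M colonies 2 and 3, to 740 in ESC and to between 3732 and 4699 in the other colonies. Results on M colonies are therefore also given without M colonies 2 and 3 where that matters. The lower sum in ESC, the only library of its group, was not examined further. Even numbers made up 68.5% to 72.2% of the counts from 1 to 49, and 49.5% to 50.9% of those of 1000 or more, so low counts may stand for fewer independent fragments than they seem. Of 456 genes whose exon bases all lie under exons of a gene on the other strand, 1 held any count, and of 755 covered by a gene on the same strand, 4 did, against 53.9% of 43028 genes that share no base. Reads over 2 genes were thus left out of the table whatever their strand, and levels per length below use the exon bases that no other gene shares.

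All 9 genes were detected in every library and passed the low-count filter of each fit. Per length, Snrpn was the highest of the 9 in all 3 groups, followed by Peg3 and Ube3a, while Zim1, Usp29 and Magel2 took the last 3 places in each. Snrpn stood at 38.0 CPM per kb of unshared exon in ESC, 36.1 ± 3.1 (SD, n = 3) in GC colonies and 33.6 ± 5.1 (SD, n = 3) in M colonies. Peg3 stood at 9.42, 8.32 ± 1.81 and 12.7 ± 2.6 CPM per kb in the same order, and Ube3a at 4.89, 4.90 ± 0.37 and 4.59 ± 0.37. Ndn, Mkrn3 and Peg12 lay between 1.86 and 4.09 CPM per kb. Within each colony group Ndn was above both of the others without overlap, at 3.57 to 3.81 CPM per kb in GC colonies and 3.41 to 4.09 in M colonies. The ranges of Mkrn3 and Peg12 overlapped in each colony group. At the low end, Usp29 held 0.109 to 0.162 CPM per kb, Zim1 0.143 to 0.404 and Magel2 0.0868 to 0.448.

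**Figure D1:**
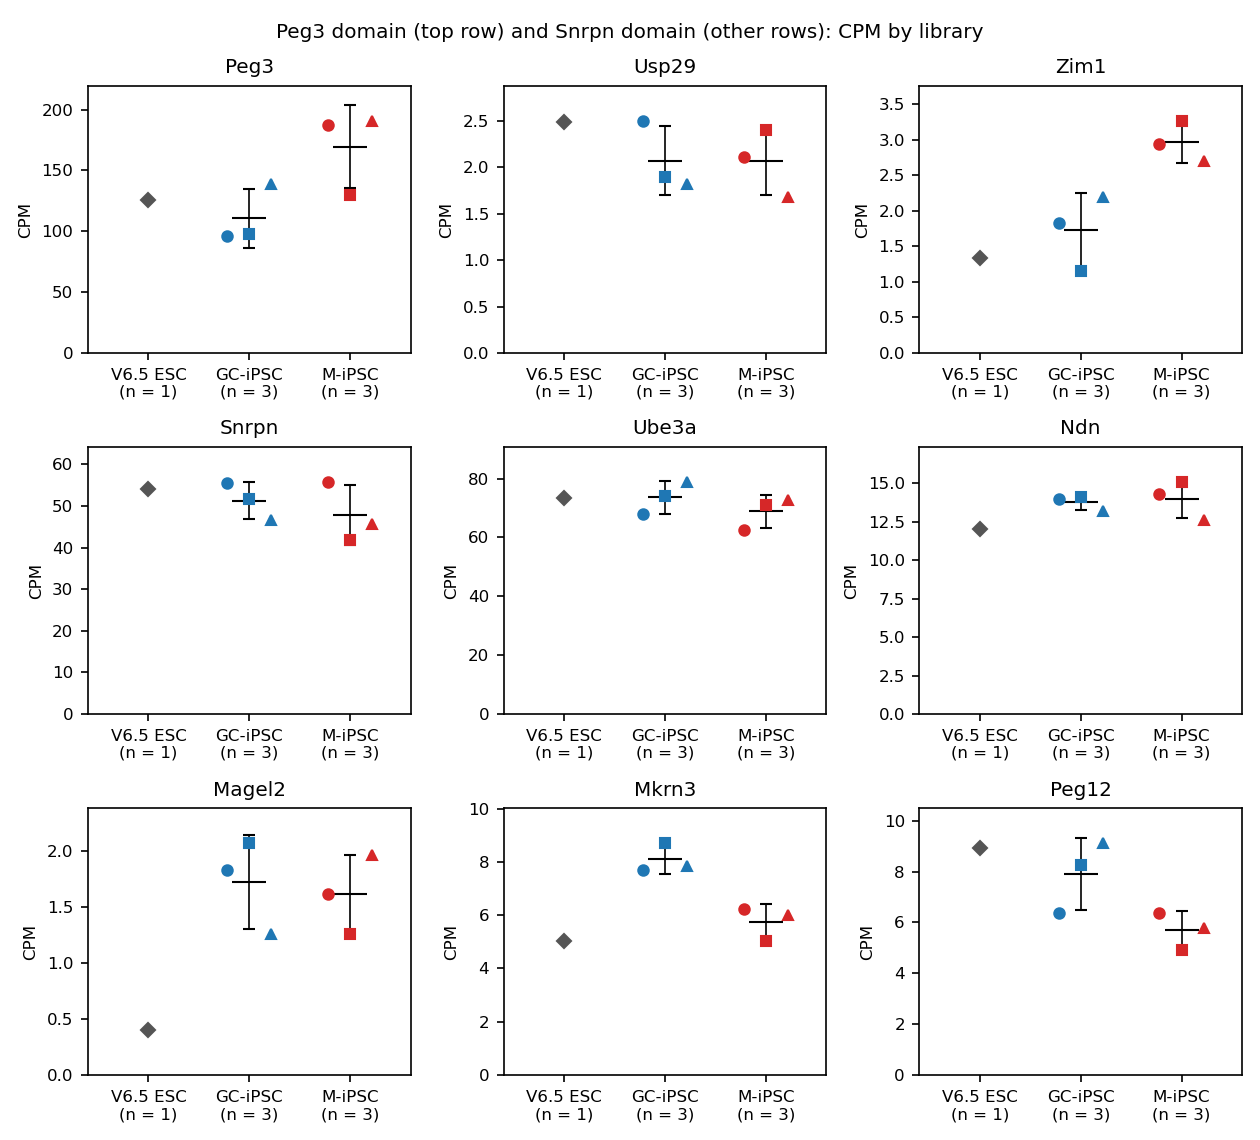
Each panel plots 1 gene: the vertical axis is its level in CPM, starting at 0, and the horizontal axis the group; each point is a library (circle, square and triangle are colonies 1, 2 and 3), with the mean and SD of 3 colonies in black. Peg3 reaches 187.6 and 190.7 CPM in 2 M colonies, Magel2 is lowest in ESC at 0.402 CPM, and the 3 M colonies lie above the GC colonies for Zim1 and below them for Mkrn3.

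The first comparison, M against GC colonies, asks whether iPSC from Myc-GFP-sorted and from bulk B cells differ in these domains. Peg3, a zinc-finger protein gene with roles in fetal growth and maternal care, rose in M colonies, and it was the only 1 of the 9 that passed the test. Zim1, its maternally expressed zinc-finger neighbour, had a similar fold without passing, and Usp29, a deubiquitinase gene, had nearly equal means in both. In the Snrpn domain 0 of 6 genes passed by edgeR, DESeq2 or limma-voom, and Mkrn3 and Peg12 had an unadjusted edgeR p under 0.05. Over all genes tested, 3.97% passed in either direction and 1.70% were higher in M colonies.

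Peg3 (ENSMUSG00000002265, chromosome 7 from 6703892 to 6730431) stood at 96.3, 97.4 and 138.7 CPM in GC colonies 1 to 3, at 187.6, 129.9 and 190.7 CPM in M colonies 1 to 3 and at 125.5 CPM in ESC. M colonies 1 and 3 were above every other library, while M colony 2 was below GC colony 3, so the groups overlap. The means were 110.8 ± 24.1 and 169.4 ± 34.3 CPM (SD, n = 3 each), a log2 change of 0.61 ± 0.15 (SE) with an edgeR adjusted p = 0.0423. That call ended in DESeq2 (adjusted p = 0.135) and without GC colony 1 (edgeR adjusted p = 0.146), GC colony 2 (0.215), M colony 1 (0.124) or M colony 3 (0.226), with a log2 change from 0.52 to 0.53 in those 4 fits. Without M colonies 2 and 3, which leaves 1 M library, the change was 0.76 (edgeR adjusted p = 0.0491).

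The 13 primitive endoderm markers, genes of an extraembryonic lineage that can arise in such cultures, were like Peg3 highest in M colonies 1 and 3. Their summed level was 3773, 3221 and 3933 CPM in GC colonies 1 to 3 and 5940, 3762 and 6193 CPM in M colonies 1 to 3. M colony 2 was again within the GC range. Among GC colonies the order differed, as the marker sum was lowest in colony 2 and Peg3 in colony 1. ESC went the other way, with 819.8 CPM of these markers beside 125.5 CPM of Peg3. Of the 13, 5 rose in M colonies (Foxq1, Cubn, Dab2, Amn and Lrp2), 0 fell and 8 did not pass, and 12 of 13 had an unadjusted edgeR p under 0.05. Of all genes tested, 1.70% rose and 16.6% had such an unadjusted p. The median log2 change of the markers was 0.66, and none was at 0 counts in any library. The 21 fibroblast markers summed to 1085 to 1174 CPM over GC colonies and to 1096 to 1391 CPM over M colonies, and 0 of 18 tested passed by edgeR, with 2 at an unadjusted p under 0.05. The part of either cell type in the Peg3 difference was not tested, and in bulk RNA fewer cells of a type cannot be told apart from less RNA per cell.

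Zim1 (ENSMUSG00000002266, chromosome 7 from 6671269 to 6696450) stood at 1.83, 1.16 and 2.20 CPM in GC colonies 1 to 3, at 2.93, 3.26 and 2.69 CPM in M colonies 1 to 3 and at 1.34 CPM in ESC. All 3 M values lay above all 3 GC values, which held for 10.1% of all genes tested. The log2 change of 0.77 ± 0.27 (SE) did not pass (edgeR adjusted p = 0.154), and it rests on 38 to 109 counts a library. Usp29 (ENSMUSG00000051527, chromosome 7 from 6730578 to 6967219), which starts beside Peg3 on the other strand, stood at 2.07 ± 0.37 CPM (SD, n = 3) in GC colonies, at 2.06 ± 0.36 CPM (SD, n = 3) in M colonies and at 2.48 CPM in ESC. Its fitted change was -0.01 ± 0.26 (SE) on the log2 scale, with a sign that flipped in 4 of 14 alternatives. Of its 18078 exon bases 2582 are shared with genes on the other strand and 94 on its own, and reads there are not in the table.

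On the Usp29 side, 3 genes that start 246.8 to 406.3 kb from the Peg3 start fell in M colonies. The domain is taken here as Peg3, Usp29 and Zim1, so Zfp264 is counted among its neighbours. Of 22 other genes tested within 1 Mb of the Peg3 domain, Zfp264, Aurkc and Zfp773 fell, 0 rose and 19 did not pass, where 2.27% of all genes tested were lower. Zfp264, a zinc-finger pseudogene at the edge of the domain (ENSMUSG00000109176, chromosome 7 from 6977246 to 6991087), stood at 9.85, 12.6 and 14.2 CPM in GC colonies 1 to 3, at 6.85, 6.44 and 5.51 CPM in M colonies 1 to 3 and at 13.8 CPM in ESC. Its log2 change was -0.96 ± 0.16 (SE), with an edgeR adjusted p = 0.00496. Aurkc, an aurora kinase of meiosis and the early embryo (ENSMUSG00000070837, chromosome 7 from 6995300 to 7003091), stood at 11.5, 12.0 and 12.0 CPM in GC colonies, at 6.36, 5.69 and 2.98 CPM in M colonies and at 15.5 CPM in ESC.

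For Aurkc the log2 change was -1.24 ± 0.22 (SE) and the edgeR adjusted p = 0.00694. Zfp773, another zinc-finger gene (ENSMUSG00000063535, chromosome 7 from 7127073 to 7136755), stood at 9.24, 10.9 and 9.16 CPM in GC colonies, at 5.32, 4.61 and 5.17 CPM in M colonies and at 6.63 CPM in ESC, a log2 change of -0.96 ± 0.15 (SE) with an edgeR adjusted p = 0.00312. For each of the 3, every M colony was below every GC colony and below ESC, and ESC lay above the GC colonies for Aurkc and below them for Zfp773. Each of the 3 calls held when any 1 colony was left out. Without M colonies 2 and 3, when the GC colonies alone give the spread, Zfp264 changed by -0.83 (edgeR adjusted p = 0.121), Zfp773 by -0.88 (0.0720) and Aurkc by -0.90 (0.0336), so only Aurkc passed. Against ESC, Aurkc (log2 change -1.62, edgeR adjusted p = 0.00125) and Zfp264 (-1.14, 0.0024) fell in M colonies, and Zfp773 (-0.40, 0.238) did not pass. In GC colonies none of the 3 passed against ESC. Between GC and M colonies, Zfp954, the tested gene between Aurkc and Zfp773, changed by -0.24 ± 0.13 (SE) without passing (edgeR adjusted p = 0.383). The median change of all 1450 chromosome 7 genes tested was -0.02 on the log2 scale, beside 0.003 for all 18166 genes.

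**Figure D2:**
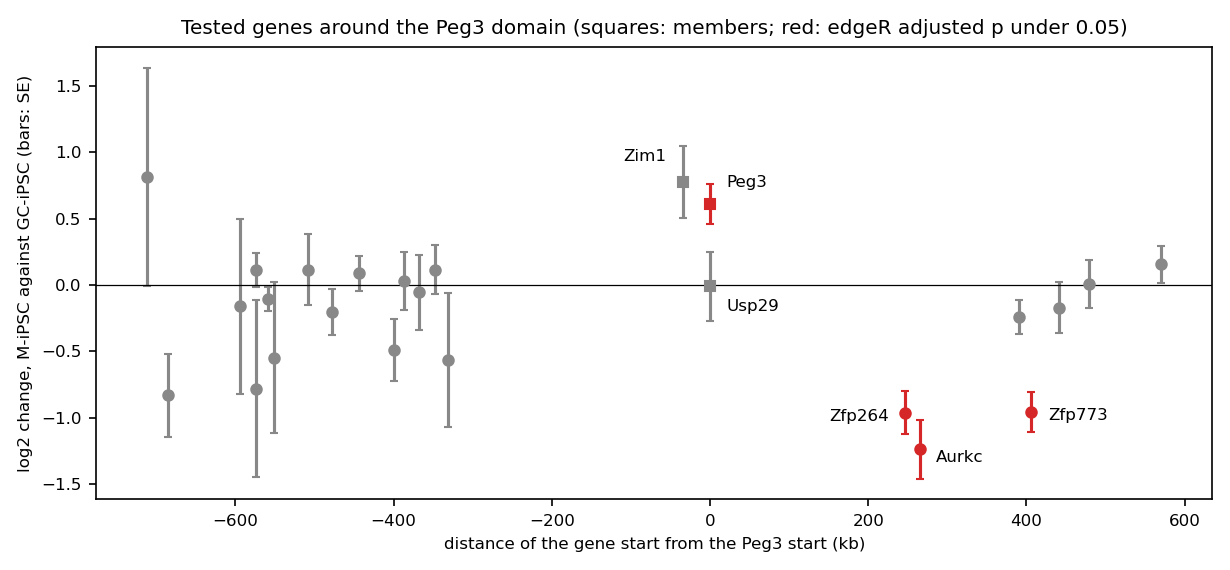
The horizontal axis is the distance of each tested gene's start from the Peg3 start in kb, and the vertical axis its log2 change in M against GC colonies with its SE; squares are members of the domain and red marks an edgeR adjusted p under 0.05. Peg3 lies above 0 at 0.61, and Zfp264, Aurkc and Zfp773 lie at -0.96, -1.24 and -0.96, between 246.8 and 406.3 kb away on the Usp29 side.

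**Figure D3:**
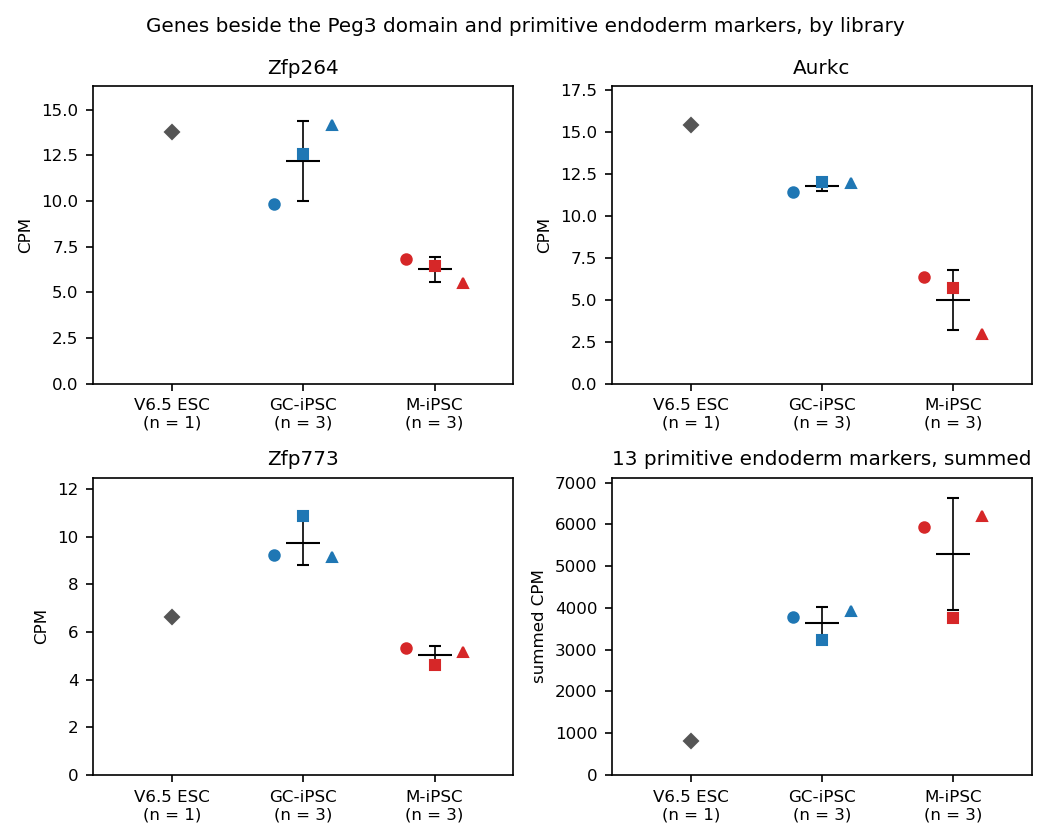
The vertical axes give the CPM of Zfp264, Aurkc and Zfp773 and the summed CPM of the 13 primitive endoderm markers, each from 0, by group; points are libraries (circle, square and triangle are colonies 1, 2 and 3), with the mean and SD of 3 colonies in black. The 3 M colonies lie below the GC colonies for each of the 3 genes, and the marker sum is 3762 CPM in M colony 2 and 5940 and 6193 CPM in M colonies 1 and 3.

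In the Snrpn domain, Snrpn, which encodes the spliceosomal protein SmN, stood at 51.3 ± 4.4 CPM (SD, n = 3) in GC colonies, at 47.8 ± 7.2 CPM (SD, n = 3) in M colonies and at 54.1 CPM in ESC. M colony 1 was highest of all libraries at 55.8 CPM and M colony 2 lowest at 41.9 CPM, so M colonies spanned the whole range of the table. The change was -0.11 ± 0.11 (SE) on the log2 scale (edgeR adjusted p = 0.697). Snrpn (ENSMUSG00000102252, chromosome 7 from 59982495 to 60140219) shares 589 of its 2159 exon bases with other genes on its own strand and 148 on the other, so the table holds only part of its RNA. The overlapping model Gm38393 (ENSMUSG00000000948, chromosome 7 from 59974149 to 60005064), chosen for this overlap after the data were seen, ran from 12.2 to 21.02 CPM, with its highest value in GC colony 3. Both together came to 66.3 CPM in ESC, 67.1 ± 1.8 CPM (SD, n = 3) over GC colonies and 62.9 ± 5.5 CPM (SD, n = 3) over M colonies. Snurf, whose exon bases are all shared with other genes, was at 0 counts in all 7 libraries, and its transcription cannot be read from the table.

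Ndn, which encodes the growth suppressor necdin, was the steadiest of the 9 in GC colonies, where the highest colony was 1.07 times the lowest, beside a median of 1.21 over the tested genes with counts in all 3 colonies. Ndn (ENSMUSG00000033585, chromosome 7 from 62346569 to 62350262) stood at 12.0 CPM in ESC, at 13.8 ± 0.5 CPM (SD, n = 3) over GC colonies and at 14.0 ± 1.3 CPM (SD, n = 3) over M colonies. Ube3a, a ubiquitin ligase (ENSMUSG00000025326, chromosome 7 from 59228750 to 59311536), stood at 73.4, 73.6 ± 5.5 and 68.8 ± 5.5 CPM in the same order. Its antisense partner Snhg14, the long RNA that runs on from Snrpn and silences paternal Ube3a in neurons, stood at 53.6, 58.4 ± 2.3 and 52.9 ± 2.5 CPM and did not pass either (edgeR adjusted p = 0.334). Ube3a shares 5624 of its 20626 exon bases with genes on the other strand, and because strand was not used in counting, intronic RNA of Snhg14 over the rest of Ube3a cannot be told apart from Ube3a RNA.

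Mkrn3 and Peg12, neighbours at the far end of the domain, both had lower means in M colonies without passing. Mkrn3, a ring-finger protein gene that restrains puberty (ENSMUSG00000070527, chromosome 7 from 62417593 to 62420139), stood at 7.71, 8.72 and 7.84 CPM in GC colonies 1 to 3, at 6.24, 5.03 and 6.02 CPM in M colonies 1 to 3 and at 5.03 CPM in ESC. All M values lay below all GC values, which held for 12.0% of all genes tested, and the change of -0.49 ± 0.15 (SE) on the log2 scale had an edgeR adjusted p = 0.103. Peg12, a GSK3-binding protein gene of the Frat family (ENSMUSG00000070526, chromosome 7 from 62461871 to 62464510), stood at 6.35, 8.26 and 9.13 CPM in GC colonies, at 6.39, 4.91 and 5.77 CPM in M colonies and at 8.95 CPM in ESC. GC colony 1 lay just below M colony 1, and the change of -0.48 ± 0.18 (SE) had an edgeR adjusted p = 0.182. Over the 9 genes, 4 had an unadjusted p under 0.05, beside 16.6% of all genes tested, and in 2 of the 9 the groups did not overlap, beside 22.1% of all genes.

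**Figure D4:**
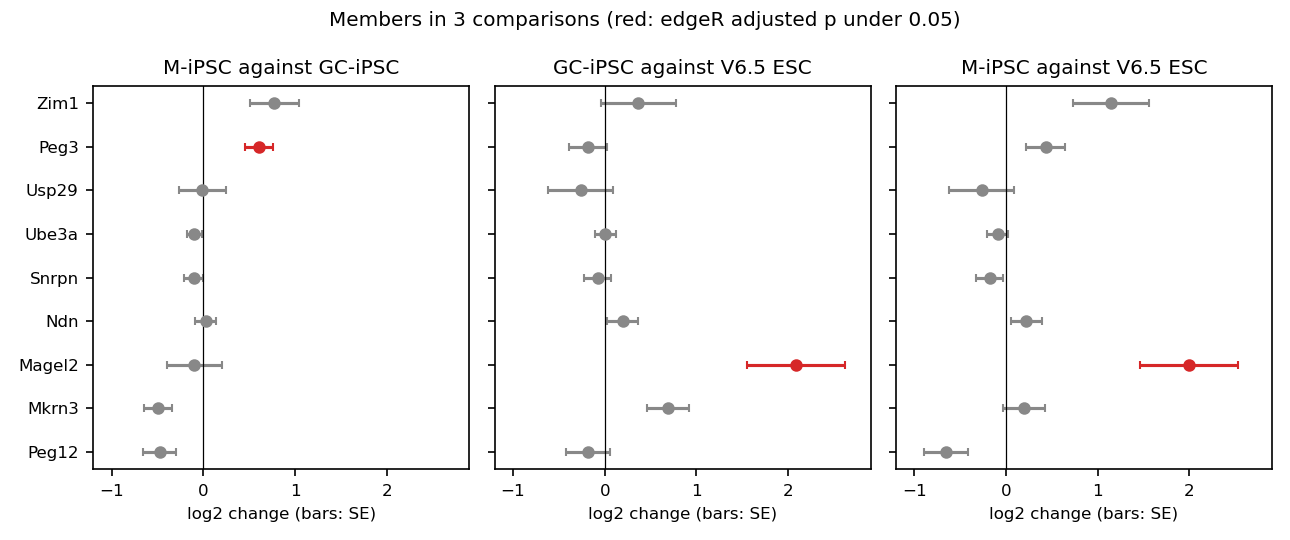
Each panel is a comparison: the horizontal axis is the log2 change, the vertical axis the gene in chromosome order, and bars are the SE; red marks an edgeR adjusted p under 0.05. Peg3 is red in M against GC colonies at 0.61, Magel2 is red against ESC at 2.09 and 1.99, and the other points are grey.

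The other comparisons set each colony group against ESC, and ask where these domains in reprogrammed cells differ from those of a line derived from embryos. Magel2 rose in both colony groups about 4-fold, and no other gene of the 9 passed in either comparison. With 1 ESC library the spread comes from the colonies, the ESC culture has no replicate check, and both comparisons share that library. In GC colonies 13.0% of all genes tested passed against ESC, 7.53% higher and 5.51% lower, and in M colonies 16.2% passed, 8.84% higher and 7.37% lower. Unadjusted p was under 0.05 for 2 of the 9 genes in GC colonies, beside 26.6% of all genes, and for 3 of 9 in M colonies, beside 28.6%.

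Magel2, which encodes a MAGE-family partner of a ubiquitin ligase in endosomal recycling (ENSMUSG00000056972, chromosome 7 from 62377010 to 62381640), stood at 0.402 CPM in ESC, at 1.83, 2.07 and 1.26 CPM in GC colonies 1 to 3 and at 1.62, 1.26 and 1.97 CPM in M colonies 1 to 3. Every colony was above ESC. The ESC value rests on 12 counts, whose 95% Poisson interval of 0.208 to 0.702 CPM covers counting error only, and colonies held 40 to 68 counts. The interval takes each count as an independent fragment, and is too narrow if low counts stand for fewer fragments. The log2 change was 2.09 ± 0.53 (SE) in GC colonies and 1.99 ± 0.53 (SE) in M colonies, with edgeR adjusted p = 0.0199 and 0.0215. The call ended in limma-voom in both, with log2 changes of 2.03 and 1.93 (adjusted p = 0.115 and 0.119). In GC colonies it also ended without GC colony 2 (1.93, edgeR adjusted p = 0.0561), and in M colonies without M colony 3 (1.83, edgeR adjusted p = 0.0529) or without M colonies 2 and 3 (2.00, 0.0597). Between the colony groups Magel2 changed by -0.10 ± 0.30 (SE).

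Markers of other cell types also differed from ESC beside Magel2. The primitive endoderm markers summed to 819.8 CPM in ESC and 3221 to 6193 CPM in the colonies, where 13 of 13 rose in both groups. The fibroblast markers summed to 651.9 CPM in ESC and 1085 to 1391 CPM in the colonies, where 8 of 18 tested rose in each group; among the defining markers Col1a1 was at 211.5 CPM in ESC and 291.1 to 408.1 CPM in colonies, and Lum was at 0 counts in 3 colonies and at 4 counts or fewer elsewhere. Neural markers, from cells in which Magel2 and its neighbours are known to be active, summed to 540.2 CPM in ESC and 364.8 to 409.1 CPM in the colonies, and went both ways: of 10 tested, 1 rose and 4 fell in GC colonies, and 2 rose and 4 fell in M colonies. Pluripotency markers fell against ESC in both groups, as given above. The part of these cells in the Magel2 difference was not tested.

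The remaining genes did not pass against ESC, and their values stand side by side. Peg3 changed by -0.18 ± 0.21 (SE) on the log2 scale in GC colonies and by 0.43 ± 0.22 (SE) in M colonies, where all 3 colonies lay above ESC (edgeR adjusted p = 0.643 and 0.208). Without M colony 2 the M value was 0.59, with an edgeR adjusted p = 0.0435. Zim1 changed by 0.37 ± 0.41 and 1.14 ± 0.41 (SE), and Usp29 by -0.26 ± 0.35 and -0.27 ± 0.35. Mkrn3 changed by 0.69 ± 0.23 and 0.20 ± 0.23, Peg12 by -0.18 ± 0.24 and -0.65 ± 0.24, and Ndn by 0.20 ± 0.17 and 0.22 ± 0.17. Snrpn changed by -0.08 ± 0.15 and -0.18 ± 0.15, and Ube3a by 0.00 ± 0.12 and -0.09 ± 0.11. The fitted distance from ESC was the larger in GC colonies for Mkrn3 and in M colonies for Peg3, Peg12 and Zim1. Both distances rest on the same ESC library. Between GC and M colonies Mkrn3, Peg12 and Zim1 did not pass, and the Peg3 call ended in DESeq2. In GC colonies 3 of the 9 had all colonies above ESC and 0 had all below, beside 34.7% and 33.5% of all genes tested (68.1% together). In M colonies 5 of 9 had all colonies above ESC and 3 had all below, beside 34.7% and 35.0% (69.6% together).

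Genes that set or guard imprints were examined next. Of 22 such genes tested, Ehmt2 and Dnmt3l rose in M against GC colonies, 0 fell and 20 did not pass. The list median was 0.04 beside 0.003 for all genes, of which 3.97% passed and 1.70% rose. Ehmt2, a histone H3K9 methyltransferase, went from 281.3 ± 12.5 to 423.1 ± 101.6 CPM (SD, n = 3 each), with 306.3 CPM in M colony 1 and 472.4 and 490.6 CPM in M colonies 2 and 3. Its edgeR adjusted p of 0.0276 became 0.705 without M colonies 2 and 3, when the log2 change was 0.12 in place of 0.59, and the call also ended in DESeq2 (0.0545) and without any 1 colony other than M colony 1. Dnmt3l, the cofactor of the methyltransferases that set maternal imprints, went from 351.4 ± 19.9 to 414.7 ± 13.5 CPM (SD, n = 3 each). Its edgeR adjusted p = 0.0469, a call that ended when any 1 colony was left out. Of the factors that keep imprints after fertilization, Zfp57 (308.1 ± 12.0 and 328.7 ± 48.3 CPM), Zfp445 (93.0 ± 13.2 and 99.2 ± 2.0 CPM), Trim28 (2139 ± 118 and 1874 ± 62.8 CPM), Dnmt1 (380.8 ± 35.1 and 370.6 ± 13.3 CPM), Uhrf1 (484.3 ± 27.7 and 480.2 ± 22.4 CPM), Dppa3 (15.3 ± 1.8 and 14.4 ± 3.0 CPM) and Yy1 (158.0 ± 6.1 and 165.3 ± 1.5 CPM) did not pass between GC and M colonies. Trim28, with a log2 change of -0.19 (edgeR adjusted p = 0.0679), passed with no low-count filter (0.0225), without GC colony 3 (0.0107) and under a block for colony number (0.0304).

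Against ESC, 4 of the 22 rose and 1 fell in GC colonies, and 5 rose and 0 fell in M colonies. Of all genes tested, 13.0% and 16.2% passed in these comparisons, 7.53% and 8.84% higher. Dnmt3b, a methyltransferase that adds new methylation, stood at 105.3 CPM in ESC, 296.5 ± 7.3 CPM (SD, n = 3) over GC colonies and 362.3 ± 62.7 CPM (SD, n = 3) over M colonies, and it rose in both. Dnmt3a and Tet3, a demethylating enzyme, also rose in both, and Tet2, another such enzyme, fell in GC colonies. Dnmt3l rose in both as well, and in M colonies its call against ESC held in all 13 alternatives, with log2 changes from 0.56 to 0.62. Of 15 paralogs and binding partners of the 9 proteins, 0 passed between GC and M colonies by edgeR, with 4 at an unadjusted p under 0.05. Against ESC, 1 rose and 6 fell in GC colonies, and 1 rose and 7 fell in M colonies, where 5.51% and 7.37% of all genes tested fell. Frat2, a paralog of Peg12, fell from 26.7 CPM in ESC to 16.9 ± 0.6 CPM (SD, n = 3) over GC colonies and 16.7 ± 1.1 CPM (SD, n = 3) over M colonies, and Trp53, Siah1a and Frat1 fell in both. Maged1 rose in GC colonies. Snrpb, the widely expressed paralog of Snrpn, stood at 239.9, 213.4 ± 16.8 and 228.4 ± 13.7 CPM in ESC, GC and M colonies and did not pass in any of the 3.

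The list of neighbours of the 2 domains held 16 genes, of which 15 were in the table. Zim2 was at 0 counts in all 7 libraries and Zim3 at 3 counts or fewer. Of 9 tested between GC and M colonies, Zfp264 fell and 8 did not pass. Atp10a, a lipid flippase gene beside Ube3a, stood at 7.17 CPM in ESC, 10.6 ± 1.0 CPM (SD, n = 3) over GC colonies and 11.4 ± 2.7 CPM (SD, n = 3) over M colonies and did not pass. Nipa2, a magnesium transporter gene beyond the domain, rose against ESC in both groups, from 20.8 CPM to 31.1 ± 0.7 and 32.0 ± 2.3 CPM (SD, n = 3 each). Within 1 Mb of the Snrpn domain, 0 of 11 other genes tested passed by edgeR between GC and M colonies, and 0 had an unadjusted p under 0.05. Against ESC, Gm7367 fell there in GC colonies (edgeR adjusted p = 0.0419) and Otud7a rose in M colonies (0.0417). Within 1 Mb of the Peg3 domain, Nlrp4c rose in GC colonies (0.0306) and Zfp444 fell in M colonies (0.0202). These calls ended in 2, 6, 3 and 2 of 13 alternatives, in the order given.

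Of 28 imprinted genes of other domains, 5 rose in M against GC colonies, 0 fell and 23 did not pass, where 1.70% of all genes tested rose. Their median log2 change was 0.39, beside 0.003 for all genes tested and -0.10 for the 9 genes. The 4 with the smallest adjusted p were Peg10, Nnat, Igf2 and Cdkn1c. Without M colonies 2 and 3, Peg10 kept its call, and Nnat (log2 change 0.49, edgeR adjusted p = 0.172), Igf2 (0.55, 0.327) and Cdkn1c (0.32 in place of 0.52, 0.473) did not. The Igf2 call also ended without any 1 colony other than GC colony 3 and M colony 1, and that of Cdkn1c without any 1 colony other than M colony 1. Peg10 went from 353.4 ± 21.4 to 726.6 ± 99.4 CPM (SD, n = 3 each), and its lowest M value, as for Peg3, was in M colony 2 at 613.5 CPM. Against ESC, 5 of the 28 rose and 4 fell in GC colonies, and 9 rose and 6 fell in M colonies. Of all genes tested, 13.0% and 16.2% passed in these comparisons. Rian and Meg3 fell and Igf2 rose in both, H19 rose in GC colonies and Peg10 in M colonies. Each of these calls held in all 13 alternatives. The 3 genes whose profile over the 7 libraries was most like that of Peg3, by the root-mean-square difference of centred log2 CPM among 12675 genes with a profile SD of at least 0.2, were the noncoding Gm13421 (0.0955), Gm44986 (0.106) and D030028A08Rik (0.112), all at 3.06 CPM or less. For Snrpn, whose own profile SD of 0.161 lies below that minimum, so that it was set only against 12676 genes more variable than itself, they were Psmg3 (0.0917), Cdk2ap2 (0.0937) and Htatip2 (0.0959). None of the 6 is a member, and the measure says nothing of shared control.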

How the data were processed

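RNA was sequenced from 7 mouse cultures. The authors deposited raw counts, 1 whole number per Ensembl gene and library. The submitters' processing notes name STAR 2.7.10a, featureCounts 2.0.6 and DESeq2, and the builds mm10 and GRCm38. No source states the strand setting, and the labels name both a non-stranded and a directional library. Symbols and exons are those of GENCODE M21, which held 54809 of the 54838 genes, and promoters those of RefSeq (GRCm38.p6).

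Groups came from sample titles. M-iPSC and GC-iPSC were compared in a fit of those 6 libraries (18166 genes) and each with V6.5 in a fit of all 7 (20502 genes), after filterByExpr and TMM, with the two-sided quasi-likelihood test of edgeR 4.0.16 (R 4.3.3). Adjusted p is Benjamini-Hochberg over all genes tested, with a threshold of 0.05; SE is the log2 change over the square root of F. CPM uses TMM over 7 libraries. A count of 0 allows 3 counts, 0.0832 to 0.101 CPM. Alternatives were DESeq2 1.42.0, limma-voom (limma 3.58.1), DESeq2 size factors, no filter, halved counts, other library sets and left-out colonies. The fits were tested on simulated counts drawn with the same spread setting for every gene, which need not match the spread among these colonies. Nothing says that colonies came from separate mice, so a p measures only the spread among these cultures, and the lone ESC library was assumed to vary like the colonies.

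The members, lists and tests were chosen with earlier results of these data known. Named by rule were every member, up to 4 genes per list and comparison by adjusted p with a set of imprinting factors always named, up to 3 neighbours within 1 Mb, and the 3 profiles nearest to Peg3 and to Snrpn (among genes with a profile SD of at least 0.2).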

Additional observations from a re-analysis of the deposited data

How the results depend on the processing

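Leaving out 1 colony moved the number of genes past the threshold in M against GC colonies between 244 (without GC colony 2) and 814 (without GC colony 3), from 721. GC colony 1 left out gave 412, M colony 3 gave 270, and M colonies 2 and 3 together 373. It was 1318 with no low-count filter and 1110 with DESeq2. Of the 9 members, 1 passed in each comparison. That number was 0 with DESeq2 in M against GC colonies, and 0 to 1 over the left-out colonies. It was 0 with limma-voom in GC colonies against ESC, and 0 to 1 over the left-out colonies. In M colonies against ESC it was 2 with no filter, 0 with limma-voom, 0 without M colonies 2 and 3 and 0 to 2 over the left-out colonies. The colony number in the titles as a block left 1 member past the threshold and 963 genes in place of 721. Same-numbered colonies correlated at 0.0729, 0.0750 and 0.164 in their deviations across genes, each colony best with its own number. GC colony 2 correlated nearly as well with M colony 1 (0.0617). Deviations from a mean of 3 colonies are tied to each other, so these small values cannot decide whether colonies are paired, and no pairing is stated. Under the block Trim28 passed as well (edgeR adjusted p = 0.0304), as it did with no filter (0.0225) and without GC colony 3 (0.0107).

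Among the genes named, 1027 of 1108 refitted log2 changes kept their direction and side of the threshold. Direction changed only for changes that had not passed, and the cause was not tested. In M against GC colonies, without M colonies 2 and 3, these were Usp29 (0.0231), Snrpn (0.119), Zfp57 (-0.146), Uhrf1 (0.0255) and Dppa3 (0.221), and Usp29 was 0.00431 with halved counts. Over the left-out colonies Usp29 ran from -0.131 to 0.151, Ndn from -0.0335 to 0.0950, Magel2 from -0.272 to 0.0642, Gm38393 from -0.190 to 0.198, Atp10a from -0.101 to 0.227, Zfp57 from -0.0152 to 0.199, Dnmt1 from -0.0823 to 0.0421, Uhrf1 from -0.0380 to 0.0386 and Dppa3 from -0.275 to 0.00437. Against ESC, Ube3a in GC colonies was -0.000309 with limma-voom and ran from -0.0453 to 0.0617 over the left-out colonies, and Snrpn in M colonies was 0.0473 without M colonies 2 and 3. Low counts limit Zim1, Usp29 and Magel2 most.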
